A study of Mus musculus with 2 samples.

Results

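The genes described here are 10 transcription and mRNA decay factors known for holding naive T cells in quiescence, the resting state of a T cell that has not met its antigen. They are the Krüppel-like zinc finger genes Klf2, Klf3 and Klf6, the forkhead genes Foxo1, Foxo3 and Foxp1, the antiproliferative genes Tob1, Btg1 and Btg2, and Tsc22d3, which encodes the glucocorticoid-induced leucine zipper GILZ. They were chosen by this function, with earlier results of these data known, and not by a cut on their values. All 10 members were measured, of 19938 genes with a transcript cluster (a set of array probes for one transcript) that carries 1 gene symbol. Each member had 1 such cluster.

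The samples were sorted CD4+ T cells from mouse spleen, with high surface T cell receptor beta and CD4 and enrichment for low CD44, on 1 array of each genotype. The Taf7 -/- cells carried a floxed and a null Taf7 allele together with the 8EIII-cre transgene (TAF7f/- 8EIII-cre+), and the Taf7 +/- cells carried the same alleles without Cre. Both were on a C57/BL6 and 129 mix. Presence of Cre and loss of Taf7 therefore cannot be told apart, and neither age, nor pooling of animals, nor the cells in which the Cre driver acts is stated in the labels. Values are log2 signals, and a difference is the knockout (Taf7 -/-) minus the heterozygote (Taf7 +/-). With 1 array per genotype no difference has an error or a test, and directions describe these 2 arrays only.

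Quiescence in T cells is kept by transcription factors and by mRNA decay. FOXO factors enter the nucleus when phosphatidylinositol 3-kinase and AKT signalling is low, and there switch on genes of survival, homing and cell cycle arrest. KLF2 holds naive cells in circulation through receptors for lymph node entry and exit. TOB and BTG proteins bring the CCR4-NOT deadenylase to mRNAs and shorten their poly(A) tails, and GILZ, induced by glucocorticoids and by FOXO factors, restrains NF-kB and AP-1.

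Taf7, the deleted gene, which encodes a TFIID subunit, was at 8.34 in Taf7 +/- and 7.79 in Taf7 -/- cells. The difference of -0.55 was a 1.46-fold lower signal, and the labels do not say whether its probes cover the deleted part. Genes whose mean of the 2 arrays reached 7.71, the median of all rows, are called above the filter, and 10457 genes were. Of these, 3.95% had a lower difference than Taf7. Among genes with means from 8.01 to 8.42, which held Taf7, the central 95% of differences ran from -0.69 to 0.47. The difference of Taf7 lay inside that range. All 10 members passed the filter on both arrays. All 7 measured CD4 T cell markers passed it. Of these 5 were lower and 2 higher, with a median difference of -0.17, where 59.1% of all genes above the filter were lower. None differed by 1.5-fold. Cd3d, at 11.56 and 11.06, and Cd28, at 12.37 and 11.95, had the lowest differences, -0.50 and -0.42. Both lay below the central 95% of genes of similar signal, which began at -0.49 and -0.39. Of 21 measured B cell, myeloid, natural killer, erythroid and platelet markers 18 were below the filter. The other 3 were Cd79b, Itga2b and Klrd1, a natural killer cell gene that was at 9.46 and 8.37, 2.13-fold lower in the knockout. The other natural killer markers, Ncr1 and Klrb1c, were below the filter, at differences of -0.01 and -0.10. Itgam, a myeloid marker below the filter by its mean, was at 7.83 in Taf7 +/- and 7.04 in Taf7 -/- cells, 1.73-fold lower. Of the CD8 T cell markers, Cd8b1 was above the filter, at 10.50 and 10.24, and Cd8a below it, at 7.63 and 7.65. The part of such cells in the results was not tested.

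Of the quiescence factors 4 were higher in the knockout and 6 were lower, beside 40.9% and 59.1% of all genes above the filter. A 1.5-fold difference was seen in 0 of 10. Among all genes above the filter 3.62% differed by that size. This share, and those for the smaller size below, are not matched to the members in signal. All 10 members had a mean above 10. The central 95% of differences of such genes ran from -0.52 to 0.28, inside the 1.5-fold size. For all genes above the filter it ran from -0.62 to 0.39. A count of 0 among 10 therefore does not set the members apart from genes of similar signal. At a smaller size, a log2 difference of 0.32, 1 member was higher (Tob1, against 5.03% of all genes) and 1 lower (Klf6, against 13.3%), together 2 of 10 against 18.4%. The median member difference was -0.02, beside -0.05 for all genes above the filter, and it turned to 0.03 after centring, to 0.03 with the loess trend removed and to 0.04 after quantile normalization. Foxo3, Foxp1 and Btg1 lay so close to 0 that their sign depended on the scaling. The signs of the other 7 members were the same under centring, removal of the trend, quantile normalization and averaging of clusters.

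**Figure D1:**
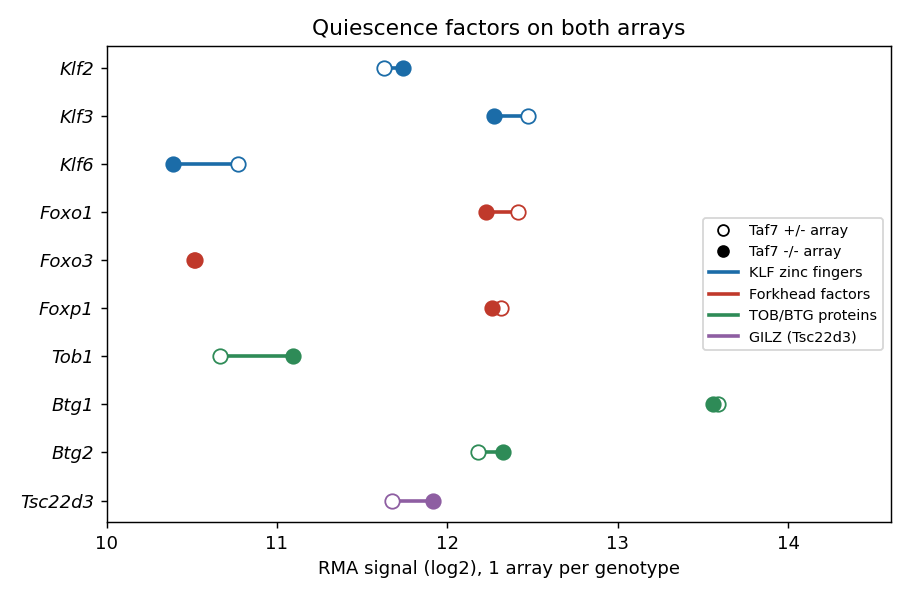
Log2 signal of each of the 10 members (rows) on the heterozygous array (open circles) and the knockout array (filled circles), coloured by family, with 1 array per genotype and no error bars. Tob1, at 10.66 and 11.09, has the longest bar to the right and Klf6, at 10.77 and 10.39, the longest to the left; signals of different genes come from different probes and are not comparable along the axis.

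Among the antiproliferative genes, Tob1 stood apart from its relatives. Tob1, which restrains T cell proliferation and binds the deadenylase, was at 10.66 in Taf7 +/- and 11.09 in Taf7 -/- cells. The knockout signal was 1.35-fold higher, with a difference of 0.43, and 1.73% of genes above the filter had a higher difference. Btg2, a p53 target of the same family, was at 12.18 and 12.32, a difference of 0.14. Btg1, which with Btg2 keeps T cells quiescent, was at 13.59 and 13.56, a difference of -0.03 that became 0.02 after centring. The order of the 3 differences, Tob1 above Btg2 above Btg1, was that of these arrays and no gap between them was tested. The reference gene table lists 2 further genes named after Btg1, and their clusters were below the filter, at 4.59 and 4.72 for Btg1b and at 6.91 and 6.86 for Btg1c. Whether Btg1 probes also bind their transcripts was not tested.

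Tob1 was also the only member outside the central 95% of genes of similar signal. In the bin of 1045 genes with means from 10.49 to 10.96, which held Tob1, Klf6 and Foxo3, the differences ran from -0.56 to 0.27 with a median of -0.05. By construction 5 in 100 genes of a bin lie outside that range. Klf6, at -0.38, and Foxo3, at -0.00, lay inside it. The other 7 members were in the highest of 10 signal bins, where the range was -0.39 to 0.28, and all lay within it.

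**Figure D2:**
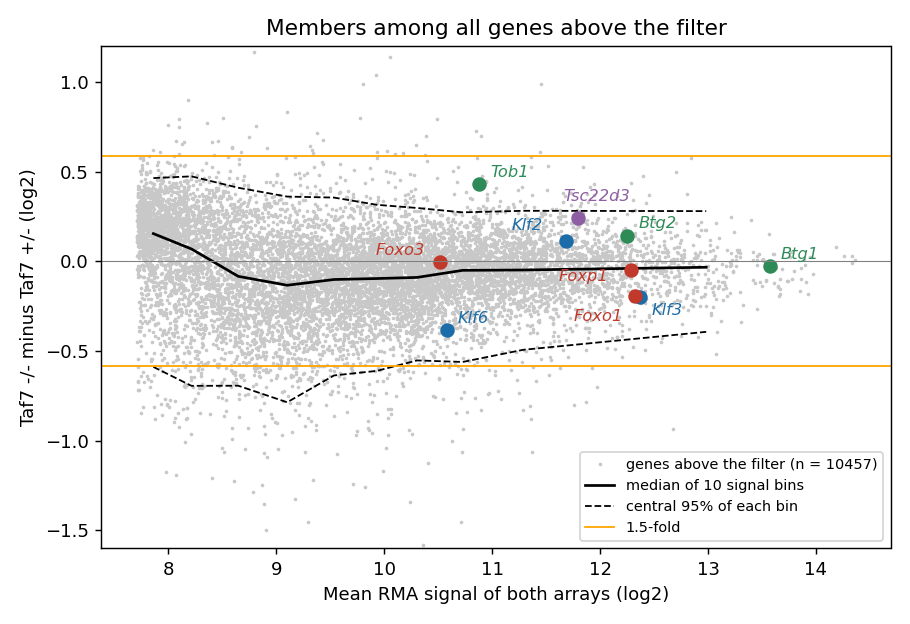
Difference between the arrays (knockout minus heterozygote, log2) against mean log2 signal for 10457 genes above the filter (grey points, 4 of them beyond the vertical range) with the 10 members in colour. The black line is the median and the dashed lines are the central 95% of 10 signal bins; Tob1, at 0.43, is the only member above the upper dashed line, and no member reaches the 1.5-fold lines.

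Among the zinc finger genes, Klf6 was lower in the knockout and Klf2 was slightly higher. Klf6, a factor induced early in cell activation, was at 10.77 in Taf7 +/- and 10.39 in Taf7 -/- cells, a 1.30-fold lower signal with a difference of -0.38. Of all genes above the filter, 9.56% had a lower difference. Klf3, a repressor of the same family, was at 12.47 and 12.27, a difference of -0.20. Klf2, which drives expression of the exit receptor S1pr1, was at 11.63 and 11.74, a difference of 0.11. The 3 zinc finger members thus did not share a direction.

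The forkhead members lay at or below 0. Foxo1, which maintains Il7r, Ccr7 and Klf2 in naive cells, was at 12.42 in Taf7 +/- and 12.23 in Taf7 -/- cells, a difference of -0.19, and 26.5% of genes above the filter had a lower one. Foxp1, which holds naive T cells quiescent in part by opposing FOXO1 at Il7r, was at 12.31 and 12.26, a difference of -0.05 that became 0.01 after quantile normalization. Foxo3, a FOXO factor known for inducing the death gene Bcl2l11, was at 10.52 on both arrays, with a difference of -0.00 that became 0.07 after quantile normalization. Foxo1 was the forkhead member with the lowest difference, and it stayed between -0.19 and -0.12 under all scalings.

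Tsc22d3, the GILZ gene and a standard readout of glucocorticoid signalling, was higher in the knockout. Its signal was 11.67 in Taf7 +/- and 11.92 in Taf7 -/- cells, 1.18-fold higher with a difference of 0.24. Of all genes above the filter, 9.91% had a higher difference. Among the 10 members only Tob1 had a higher one, under the deposited scale and under each of the alternative scalings.

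Promoter sequences were set beside these differences, since TFIID, the complex that contains TAF7, recognises core promoters. RefSeq windows from 250 bases before to 50 after a gene's start were available for all 10 members, 14 windows in all, with 3 each for Foxp1 and Tsc22d3. The 250 bases before the start are shown for the TOB/BTG genes, which include the highest member, and for Klf6, the lowest member. They are RefSeq sequences of build GRCm38.p6, 5′ to 3′ on the gene's strand, and capitals mark matches on either strand to any of 6 motifs. TATAAA is the motif of the TATA box, GTAAACA that of FOXO factors and TGACGTCA the cyclic AMP response element. CACCC is read by KLF proteins, CCAAT by the factor NF-Y, and AGAACA is one arm of the glucocorticoid receptor element.

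The upstream windows of the TOB/BTG genes and of Klf6 read as follows.
Tob1 (chr11:94211204-94211453, plus strand): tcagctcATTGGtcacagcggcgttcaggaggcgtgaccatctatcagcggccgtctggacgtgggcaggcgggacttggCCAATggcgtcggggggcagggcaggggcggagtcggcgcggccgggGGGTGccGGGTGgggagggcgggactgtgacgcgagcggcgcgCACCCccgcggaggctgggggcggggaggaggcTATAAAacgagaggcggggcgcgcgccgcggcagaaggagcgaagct
Btg1 (chr10:96616751-96617000, plus strand): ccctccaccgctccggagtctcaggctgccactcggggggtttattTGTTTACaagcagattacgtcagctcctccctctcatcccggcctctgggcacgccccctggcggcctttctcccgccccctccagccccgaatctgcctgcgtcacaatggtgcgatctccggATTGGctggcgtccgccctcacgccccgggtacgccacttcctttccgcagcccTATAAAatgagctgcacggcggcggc
Btg2 (chr1:134079156-134079405, minus strand): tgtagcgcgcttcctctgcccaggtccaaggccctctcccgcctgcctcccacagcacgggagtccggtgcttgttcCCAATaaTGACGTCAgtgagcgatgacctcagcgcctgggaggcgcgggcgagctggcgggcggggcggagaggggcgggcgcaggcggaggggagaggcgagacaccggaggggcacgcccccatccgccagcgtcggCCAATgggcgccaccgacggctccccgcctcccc
Klf6 (chr13:5861239-5861488, plus strand): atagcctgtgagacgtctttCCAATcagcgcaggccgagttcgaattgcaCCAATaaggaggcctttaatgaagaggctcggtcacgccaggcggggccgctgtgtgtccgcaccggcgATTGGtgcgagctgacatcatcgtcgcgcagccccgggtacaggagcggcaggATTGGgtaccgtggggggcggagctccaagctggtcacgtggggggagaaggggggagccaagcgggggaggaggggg

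The TATA box letters occurred in 2 of the 10 members, Tob1 from 47 and Btg1 from 26 bases before the start. By window that was 2 of 14, beside 13.6% of all 32851 promoter windows. These 2 genes had differences of 0.43 and -0.03, and whether the letters bear on a difference was not tested. The FOXO letters occurred in Btg1 only, 204 bases before the start, against 3.65% of all windows. The cyclic AMP response element occurred in Btg2 only, 166 bases before the start, against 1.79%. CACCC was found in 5 members, Foxp1, Klf2, Klf3, Tob1 and Tsc22d3. It was in 7 of the 14 member windows and in 57.5% of all windows. CCAAT was found in 6 members, including 4 matches in the Klf6 window, and in 6 of the 14 member windows, against 37.4% of all windows. The receptor motif was found in 1 member, Tsc22d3, 185 bases before one of its 3 starts, so in 1 of the 14 member windows, against 19.0%. No match overlapped one of another motif in the members' windows. A match is a run of letters and not a measured binding site, and which start is used in these cells was not measured.

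Relatives of the members were measured too, and the KLF relatives that passed the filter were mostly at small differences. Of 14 further KLF genes 10 were above the filter, 6 of them higher and 4 lower, where 40.9% of all genes were higher. That share was not matched in signal to these 10. Their median of 0.04 became -0.24 when the filter was set at the 75th percentile, which leaves fewer genes. Klf7, known from neurons, was at 11.10 in Taf7 +/- and 10.68 in Taf7 -/- cells, a difference of -0.42 that was lower than that of Klf6. Klf16 was at -0.24 and Klf13, abundant in T cells, at -0.16, whereas Klf14 was at 0.33 and Klf5 at 0.29. Klf4, a quiescence factor of CD8 T cells, was at 7.77 and 7.85, close to the filter, and differed by 0.08. Klf9, Klf10, Klf11 and Klf15 had differences of -0.11, 0.01, 0.15 and 0.23. Klf15, at 7.66 and 7.89, was below the filter value in Taf7 +/- cells. Klf15 and Klf4 fell in the lowest signal bin, where the median difference was 0.15. Klf5 fell in the next bin, where it was 0.07. Klf1, Klf8, Klf12 and Klf17 were below the filter, at differences from 0.13 to 0.43, where genes had a median difference of 0.14.

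Among the forkhead relatives, Foxp3, the factor that defines regulatory T cells, was the exception. It was at 11.25 in Taf7 +/- and 10.19 in Taf7 -/- cells, 2.09-fold lower, whereas Foxo4 and Foxp4 differed by 0.09 and 0.11. Foxo6 and Foxp2 were below the filter, at 0.07 and 0.16. All 9 regulatory T cell markers listed had a lower signal in the knockout and 6 were lower by at least 1.5-fold, against 3.17% of all genes. Their signals ran from 8.75 to 11.90 in Taf7 +/- and from 7.08 to 11.16 in Taf7 -/- cells. Their median difference was -0.97, with Nrp1 at -1.67, Ctla4 at -1.50, Foxp3 and Izumo1r both at -1.06, Ikzf2 at -0.97 and Il2ra at -0.83. Raising the filter to the 75th percentile left fewer of these markers, with a median of -0.59 and 3 past 1.5-fold. Tnfrsf18, Tnfrsf4 and Gpr83 differed by -0.26, -0.34 and -0.02, and the sign of Gpr83 turned after centring, removal of the trend or quantile normalization. In RNA of a whole population, fewer cells of a type and less RNA per cell cannot be told apart, and the part of regulatory T cells in the members' values was not tested.

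Among memory markers 5 of the 6 above the filter were lower, where 59.1% of all genes were, and Id2 was higher at 0.12. Their median of -0.39 became -0.17 over all 9 measured markers, of which 5 were lower and 4 higher. Cd44, also a sorting marker, was 2.55-fold lower and the only one past 1.5-fold. Of the remaining relatives, Tob2 was at 8.86 and 8.81, a difference of -0.04, and Btg4 was below the filter at 0.17. The clusters of Btg3 carry several symbols and were not analysed here. Tsc22d1, a relative of GILZ, was at 9.31 in Taf7 +/- and 8.91 in Taf7 -/- cells, a difference of -0.39 and opposite in sign to Tsc22d3. Tsc22d2 and Tsc22d4 differed by 0.04 and 0.05.

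The machinery through which TOB and BTG proteins act was close to even. Of 14 measured genes of deadenylation (CCR4-NOT, PAN2-PAN3 and poly(A)-binding protein), 5 were higher and 9 lower, none by 1.5-fold. Among all genes above the filter 59.1% were lower. The median of the deadenylation genes was -0.03 and became 0.03 after quantile normalization. Cnot8, which encodes a catalytic subunit bound by TOB and BTG proteins, was at 9.68 in Taf7 +/- and 9.16 in Taf7 -/- cells, a difference of -0.51, and its other cluster differed by -0.31. Cnot7, the other such catalytic subunit, was at -0.20 and Pan2 at -0.22. At the upper end were Cnot10 at 0.23, Pan3 at 0.22 and Cnot3 at 0.04.

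Targets of the transcription factors were examined next. Of the listed KLF2 targets, S1pr1, the receptor for lymph node exit, was at 13.06 in Taf7 +/- and 12.87 in Taf7 -/- cells, a difference of -0.19. S1pr4 differed by 0.08 and the integrin gene Itgb7 by -0.03, and the sign of Itgb7 turned after centring, removal of the trend or quantile normalization. S1pr4 thus had the sign of Klf2 and S1pr1 the opposite one, on every scale used.

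Of 22 measured FOXO targets, 16 were lower in the knockout and 6 higher, with a median of -0.12 that stayed between -0.12 and -0.07 under the alternatives. Among all genes above the filter 59.1% were lower. The 2 past 1.5-fold were Ctla4, at -1.50, and Foxp3, both also markers of regulatory T cells. The 20 targets that are not such markers had a median of -0.11, with 14 lower and 6 higher. Next after Ctla4 and Foxp3 came Bcl6 at -0.32. Il7r, the interleukin-7 receptor gene that FOXO1 maintains, was at 13.25 and 13.03, a difference of -0.22, and was singled out after its value was seen. At the other end, Cited2 was at 11.25 in Taf7 +/- and 11.78 in Taf7 -/- cells, a difference of 0.53, followed by Irs2 at 0.25 and Txnip, a brake on glucose uptake, at 0.21.

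Regulators upstream of FOXO were within 1.5-fold on the deposited scale. Among 20 such genes with a value, 12 were lower and 8 higher, where 59.1% of all genes above the filter were lower. The median of the 20 was -0.09. Sgk1, a kinase that phosphorylates FOXO factors and is induced by glucocorticoids, was at 9.76 in Taf7 +/- and 10.26 in Taf7 -/- cells, a difference of 0.50. Mlst8, a subunit of the mTOR complexes, was at -0.45, the exportin Xpo1 at -0.40 and the deubiquitinase Usp7 at -0.20. Pik3cd and Ikbkb were both at 0.11.

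The list of glucocorticoid-responsive genes, to which Tsc22d3 is linked by its regulation, was mostly higher. Of 9 genes above the filter 7 were higher, 2 were lower and the median difference was 0.32, which stayed between 0.32 and 0.41 under the alternatives, and 40.9% of all genes above the filter were higher. Cxcr4, a chemokine receptor, was at 11.14 in Taf7 +/- and 11.75 in Taf7 -/- cells, 1.52-fold higher and the only one past 1.5-fold, against 0.449% of all genes higher by that size. Sgk1 followed, then Ddit4, an inhibitor of mTOR complex 1, at 11.73 and 12.16, a difference of 0.43. Nr3c1, the glucocorticoid receptor gene itself, was at 10.46 and 10.19, a difference of -0.27, with Klf9 at -0.11 and Per1 at 0.01. Several of these genes also respond to other stimuli, and the labels do not describe handling of the cells before lysis. Whether either had a part in these values was not tested.

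**Figure D3:**
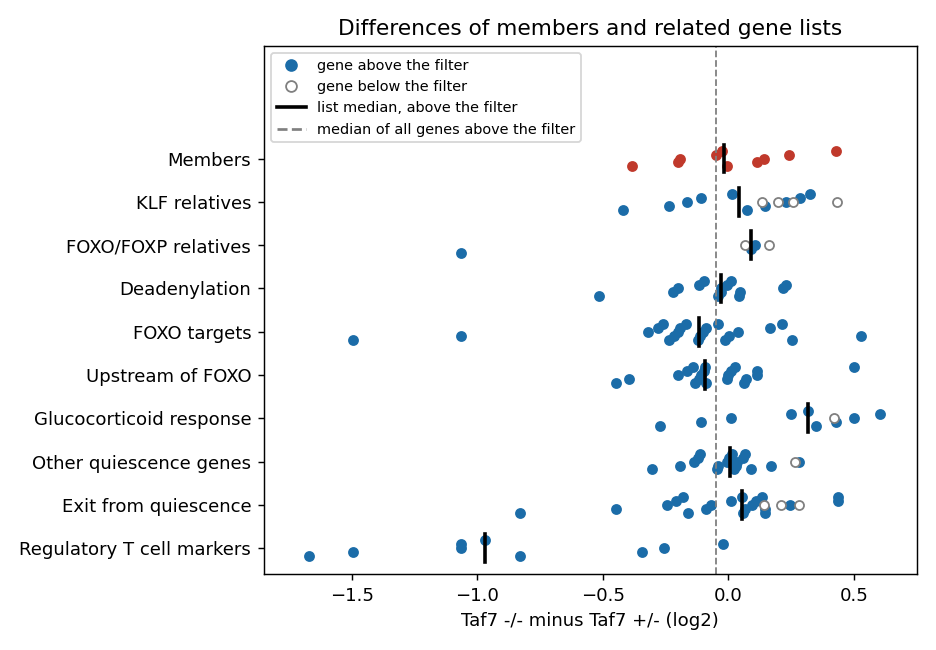
Differences (knockout minus heterozygote, log2) of the 10 members and of related gene lists, 1 point per gene, filled above and open below the filter on low signal, with the list median of genes above the filter as a bar. The dashed line is the median of all genes above the filter, -0.05; the glucocorticoid list has a median of 0.32, the regulatory T cell markers -0.97 and the members -0.02, which becomes 0.03 or 0.04 under other scalings.

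Other genes known to keep T cells quiescent lay around 0. Of 18 above the filter 10 were higher and 8 lower, none by 1.5-fold, where 40.9% of all genes above the filter were higher. The median was 0.01, or -0.00 with the clusters of a gene averaged. At the upper end were the mRNA decay factors Zfp36 at 0.28 and Zfp36l2 at 0.17 and the repressor Bach2 at 0.09. Vsir, an inhibitory receptor of naive T cells, was at 12.47 in Taf7 +/- and 12.17 in Taf7 -/- cells, a difference of -0.30. Peli1, a ubiquitin ligase, was at -0.19 and Cblb at -0.14.

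Genes that mark the exit from quiescence differed in both directions. Of 20 above the filter 12 were higher and 8 were lower, where 40.9% of all genes above the filter were higher. The median difference was 0.06, beside -0.05 for all genes, and stayed between 0.06 and 0.12 under the alternatives. Cd69, an early activation marker, was at 12.06 in Taf7 +/- and 12.50 in Taf7 -/- cells, a difference of 0.44, and Cdk6, a G1 kinase, was also at 0.44, with Egr1 at 0.25. Il2ra, also among the regulatory T cell markers, was at 11.70 and 10.87, a difference of -0.83 and the only one past 1.5-fold. Ccne1, the cyclin of S phase entry, was at -0.45 and E2f2 at -0.25. Mki67, the proliferation marker, was below the filter by its mean, at 7.50 and 7.78.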

How the data were processed

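Total RNA of 2 samples was hybridised to Affymetrix arrays, 1 per genotype. The deposited log2 values were made by the authors with RMA in Affymetrix Expression Console 1.1 on the core gene set, per the submitters' processing notes and the design text. The design text names an exon array, but row identifiers match the probe table of a gene-level array; which was used was not settled, and the sources used here give no genome build. Of 35556 rows, 21789 had 1 gene symbol in GEO's platform annotation, 1621 several and 12146 none.

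The log2 values were compared as deposited. The row medians were 7.68 in Taf7 +/- and 7.75 in Taf7 -/- cells. For a gene with several clusters the one of highest mean was used. The filter was the 50th percentile of row means (7.71). Genes were counted at 1.5-fold, and similar signal means 10 equal bins of mean. The members and gene lists were chosen with earlier results of these data known. Named are the members, Taf7, the members' listed relatives and the KLF2 targets. Up to 3 genes at each end of the other lists above the filter are named too. Others are Cd44, the other regulatory T cell markers, Btg1b, Btg1c, Il7r, Klrd1, Ncr1, Klrb1c and Itgam. Further ones are Cd8a, Cd8b1, Id2, Cd79b, Itga2b, Mki67 and Btg3. No gene is named for a like pattern, since 2 arrays give 1 difference per gene.

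Alternatives were centring, removal of a loess trend (span 0.3), quantile normalization, averaging of clusters, no filter, filters at the 25th and 75th percentile, and counting at a log2 size of 0.32. The procedure was run on simulated data whose noise was far below the spread between these arrays, which checks the code and not the differences reported here. The Entrez identifiers of all 10 members were in the GRCm38.p6 reference table, used for names; promoter windows came from RefSeq tables of that build. The versions were pandas 2.3.3 and numpy 2.4.6 under Python 3.11.15, with statsmodels 0.14.6 for the trend and matplotlib 3.10.9 for figures.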

Additional observations from a re-analysis of the deposited data

How the results depend on the processing

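Neither array could be left out, and precision is limited by there being 2 arrays. No paired analysis was possible because the genotypes had 1 array each. There were 40 recomputed member differences (4 scalings and summaries of 10 genes). All moved from the value on the deposited scale by less than 1 robust SD of genes of similar signal. Averaging could not move them, as each member has 1 cluster. Centring took the same -0.05 off each, a size below the robust SD of the members' bins (0.14 and 0.16), so neither could pass it. A move below 1 robust SD could still turn a sign, as it did for Foxo3, Foxp1 and Btg1. Tob1 ranged from 0.43 to 0.49, Klf6 from -0.38 to -0.30 and Tsc22d3 from 0.24 to 0.29. The count of members past 1.5-fold was 0 in all settings at that size and 2 at a log2 size of 0.32. The number of members higher in the knockout went from 4 to 5 with the loess trend removed and to 6 after centring or quantile normalization. Over all genes, 47 were higher by 1.5-fold, which became 71 after centring, 91 with no filter and 16 with the filter at the 75th percentile; the 332 that were lower became 246 after centring and 105 with that filter. Sgk1 passed 1.5-fold with the loess trend removed and after quantile normalization, so that 1 upstream regulator and 2 glucocorticoid-responsive genes did. Of 91 recomputed list medians 5 moved by over 0.1, all through the filter, which admits more or fewer genes. At the 75th percentile the KLF relatives moved to -0.24, the forkhead relatives to -0.48 and the regulatory T cell markers to -0.59. The memory markers moved to -0.26 at the 25th and to -0.17 with no filter. Many of the 91 could not move so far. Centring shifted every list median by the same 0.05. Averaging could change only lists that hold a gene with several clusters. The looser filters could change only lists with genes below the main filter.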
